A study of Caenorhabditis elegans with 4 samples.

Results

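The genes described here are 10 *C. elegans* genes that hold epidermal cells to each other and to the muscle beneath them: *hmr-1*, *hmp-1*, *hmp-2*, *jac-1*, *ajm-1*, *dlg-1*, *let-413*, *vab-10*, *mup-4* and *let-805*. They were chosen by name for their part in shaping the embryo, out of 17118 genes that the probe annotation names. Earlier results of these data were known when the choice was made. All 10 were found, through 32 probe sets that name 1 of these genes alone, from 1 probe set for *hmp-2* and *jac-1* to 6 for *ajm-1* and *vab-10*. RNA of embryos freed from gravid adults with hypochlorite was hybridised to 4 Affymetrix arrays of the *C. elegans* genome. By the deposited titles, the double mutant *daf-19(m86);daf-12(sa204)* gave the 2 arrays labelled *daf-19(-)*, and *daf-12(sa204)* alone gave the 2 labelled *daf-19(+)*. Every sample thus carries *daf-12(sa204)*, which suppresses the dauer-constitutive phenotype of *daf-19(m86)*, so no array shows a wild-type embryo. The study asks which genes depend on DAF-19, the RFX transcription factor of ciliated neurons, and the comparison here asks whether the epidermal junction genes differ between the same samples.

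In the *C. elegans* embryo the epidermis encloses the body and then contracts, drawing the ball of cells out into a worm. The pull of the actin and myosin bundles is carried from cell to cell by an apical junction, in which a cadherin-catenin complex lies above a band formed by DLG-1 and AJM-1. Where the epidermis lies over muscle, hemidesmosome-like fibrous organelles span it and tie the muscle to the cuticle.

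Which array is which is not settled. The fold table that accompanies the study heads these arrays the other way round: in 1998 of the 1998 rows used here, all 4 of its columns equal the signals of arrays that GEO labels with the other genotype, within 0.051. *daf-19* itself had signals of 2493 and 2365 under the label *daf-19(-)* but 768 and 857 under *daf-19(+)*, with a log2 fold change of 1.56 and an adjusted p of 0.00166 (limma). Whether *m86* leaves RNA for these probes to bind is not stated. All 12 ciliated neuron genes had values above 0, with a median of 2.48, and 5 of them passed the test. All 12 reached 80, the signal needed for testing, only under the label *daf-19(-)*, so once tested they had to be above 0. Higher signals under that label are opposite to the direction the study gives. Every difference below is stated as the arrays labelled *daf-19(-)* minus, or over, those labelled *daf-19(+)*, and turns round if the other headings are right. Median signals were 136 and 144 on the former arrays and 106.0 and 127 on the latter. The 13096 probe sets that reached 80 on 2 or more of the 4 arrays were tested with limma on log2(signal + 16), an offset that understates changes of dim probe sets. With 2 arrays a group an exact permutation test of a single value cannot give a p below 0.333. The table that accompanies the study calls the replicates biological without saying how they were grown apart, and the p-values cover only the spread among these arrays.

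No epidermal junction or attachment probe set passed the main test between the labels. Of the 32 probe sets 28 were bright enough to test and 4 were not, and *let-805* 189311_s_at reached the floor only on the arrays labelled *daf-19(-)*, so it had to differ. By limma 0 of the 28 were higher and 0 were lower at an adjusted p under 0.05, against 0.359% and 0.084% of all tested probe sets. With shares that small, 0 of 28 does not show that these genes are alike between the labels. At an unadjusted p under 0.05 there were 7 higher, 189311_s_at among them, and 0 lower, against 11.2% and 7.06% of all. The fit blocked on replicate number took variances from their trend alone, not from the spread of each probe set. In that fit 2 were called higher, 1 of *vab-10* and 1 of *mup-4*, and 0 lower, against 4.37% and 3.01% of all. When replicate 2 labelled *daf-19(+)* was left out, 5 of them and 971 of all probe sets were called higher, and with any other array left out 0 of them were. The 95% interval of the log2 fold change lay within a 2-fold change either way for 21 of the 28 and reached past it for 7.

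Small differences leaned to the arrays labelled *daf-19(-)*. The log2 fold change was above 0 for 25 of the 28 probe sets, against 55.8% of all, with a median of 0.26 against 0.06. Without *let-805* 189311_s_at these values were 24 of 27 and 0.24. Both arrays labelled *daf-19(-)* lay above both others for 11 of the 28, or 10 of the 27, against 29.7% of all. They lay below both for 1, against 21.6%. The lean was smaller without either of 2 arrays. Of the 28 probe sets 20 had their lowest signal on replicate 1 labelled *daf-19(+)*, against 40.8% of all. That replicate was below replicate 2 of its label for 24 of the 28, against 57.5% of all, and replicate 1 labelled *daf-19(-)* was below its replicate 2 for 17, against 50.1%. With replicate 1 labelled *daf-19(+)* left out 17 of the 28 were above 0, against 52.5% of all, and the median of the 28 was 0.05. For the 27 without 189311_s_at these values were 16 and 0.03. With replicate 2 labelled *daf-19(-)* left out 19 of the 28 were above 0, against 55.6% of all, and the median was 0.15. For the 27 they were 18 and 0.10. Taken by gene, each at its brightest probe set, the median of the 10 genes was 0.18, or 0.12 without the former array and 0.0028 without the latter.

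**Figure D1:**
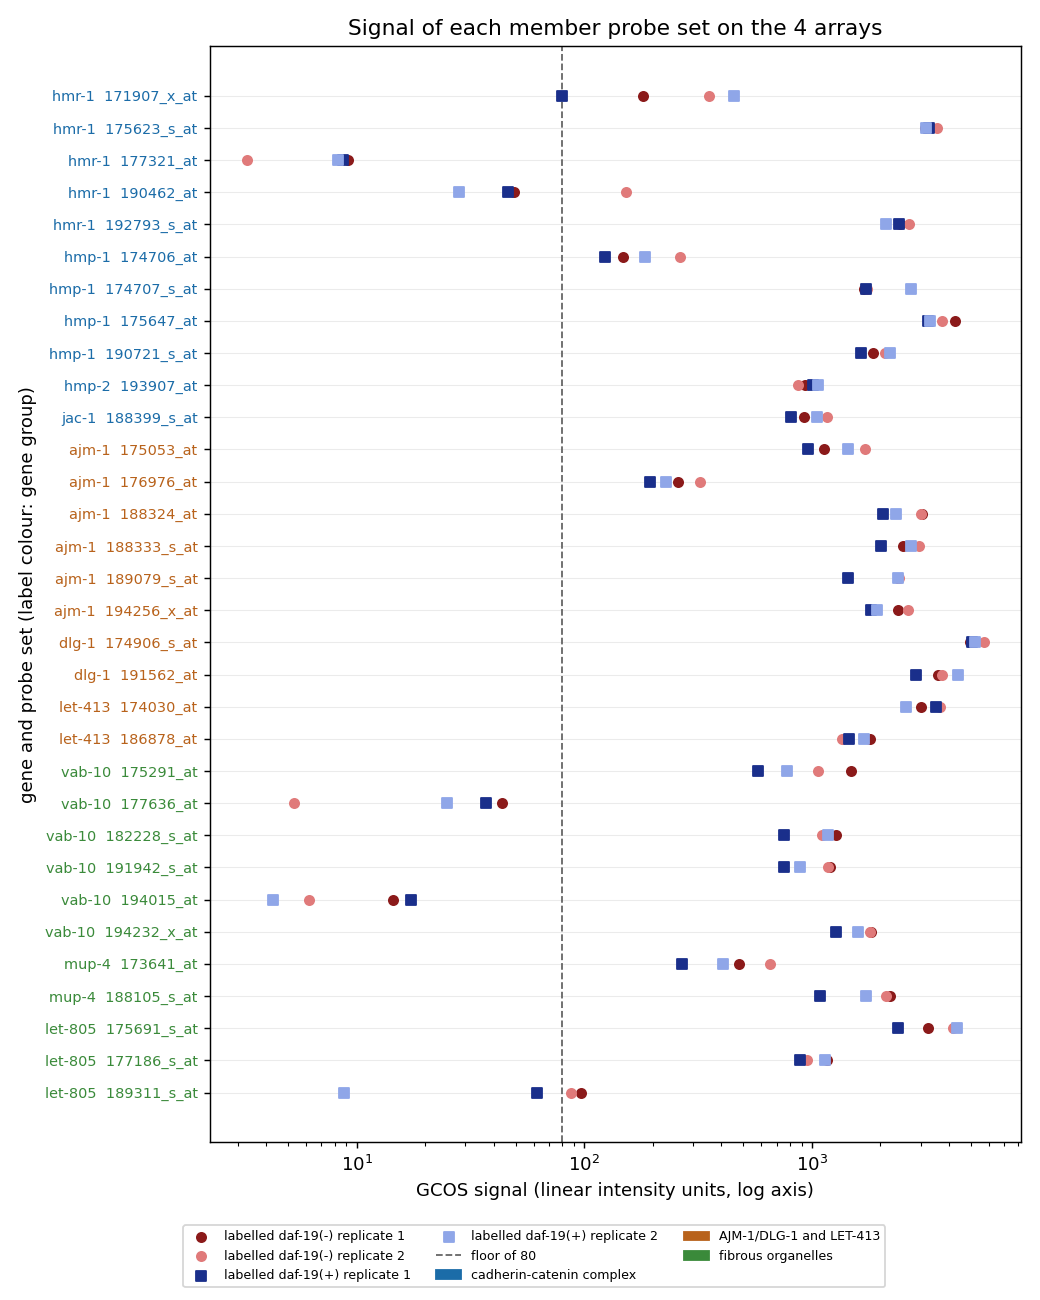
Signal of each of the 32 probe sets (rows) on the 4 arrays, on a log axis, with circles for arrays labelled daf-19(-), squares for arrays labelled daf-19(+) and a dashed line at the floor of 80. For 20 of the 28 tested probe sets the dark square, replicate 1 labelled daf-19(+), is the lowest point, and 4 probe sets of hmr-1 and vab-10 lie too low to test.

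The cadherin-catenin complex joins neighbouring cells: the cadherin HMR-1 spans the membrane, the beta-catenin HMP-2 binds its tail, the alpha-catenin HMP-1 links both to actin, and the p120-catenin JAC-1 binds nearer the membrane. None of its 9 tested probe sets passed limma, and their median log2 fold change was 0.17.
*hmr-1* (W02B9.1) was measured well by 175623_s_at, with signals of 3137 and 3556 under the label *daf-19(-)* against 3254 and 3172 under *daf-19(+)*. The groups overlapped, and the log2 fold change was 0.06 (95% interval -0.32 to 0.43, adjusted p = 0.89 from limma). Its other bright probe set, 192793_s_at, had 2426 and 2664 against 2418 and 2105, a log2 fold change of 0.17 (95% interval -0.22 to 0.56). Both intervals leave out a 2-fold change.
The remaining tested probe set of *hmr-1*, 171907_x_at, had 182 and 354 against 79.7 and 455, so that the arrays labelled *daf-19(+)* enclosed the others. Its ratio of mean signals was 1.00 and went from 0.588 without replicate 1 to 3.36 without replicate 2 of the arrays labelled *daf-19(+)*. Of the untested ones, 177321_at stayed between 3.3 and 9.2, and 190462_at had 49.1 and 151.9 against 46.2 and 28.1, high on 1 array.

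*hmp-1* (R13H4.4) has 4 probe sets, which did not lean the same way. The brightest, 175647_at, had 4228 and 3723 against 3230.1 and 3301, a ratio of 1.22 with the groups apart and a log2 fold change of 0.28 (95% interval -0.09 to 0.65, adjusted p = 0.40 from limma). 174707_s_at had 1689 and 1743 against 1724 and 2721, a log2 fold change of -0.33 (95% interval -0.81 to 0.14, adjusted p = 0.43 from limma). That value rests on the single high array, replicate 2 labelled *daf-19(+)*, since without it the ratio was 0.995. 190721_s_at lay between them at 0.05, and the dim 174706_at had 148 and 264 against 123 and 185, with a difference of 0.35 and a wide interval of -0.42 to 1.13. The log2 fold changes of this gene thus spanned 0.69 between its probe sets, more than the size of any of them.
*hmp-2* (K05C4.6) has 1 probe set, the only tested member whose labels were apart with the arrays labelled *daf-19(-)* lower. It had signals of 928 and 867 under the label *daf-19(-)* against 1013 and 1065 under *daf-19(+)*, a ratio of 0.864. Both arrays of a label lay on the same side, yet the difference of -0.21 was within the error of the fit (95% interval -0.65 to 0.23, adjusted p = 0.60 from limma). *jac-1* (Y105C5B.21) had 925 and 1170 against 813 and 1052, and a log2 fold change of 0.17 (95% interval -0.31 to 0.65). In *jac-1* replicate 2 was above replicate 1 in both labels by more than the labels differed.

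Below the cadherin complex, AJM-1, a coiled-coil protein, and DLG-1, a Discs large scaffold, form the second band of the junction, and LET-413, the Scribble protein of the worm, gathers it into its place. *ajm-1* (C25A11.4) had log2 fold changes above 0 in all 6 of its probe sets, from 0.21 to 0.47, and none passed limma (adjusted p from 0.20 to 0.62).
The probe set with the smallest p, 188324_at, had 3048 and 3012 against 2043 and 2335, a ratio of 1.38. The groups were clearly apart here, and the log2 fold change was 0.47 (standard error 0.18, 95% interval 0.08 to 0.85, adjusted p = 0.20 from limma). 194256_x_at had 2378 and 2637 against 1814 and 1926, again apart, and a log2 fold change of 0.42 (95% interval 0.03 to 0.81, adjusted p = 0.25 from limma).
The dim 176976_at also kept the groups apart, with 258 and 323 against 195 and 228. In the other 3 the groups overlapped: in 189079_s_at only replicate 1 labelled *daf-19(+)*, at 1436, stood below signals of 2394, 2415 and 2397, and its log2 fold change of 0.37 was 0.0048 without that array. 188324_at and 194256_x_at kept values of 0.37 and 0.38 without that array. Whether the probe sets of *ajm-1* differ from each other was not tested.

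*dlg-1* (C25F6.2) was the member with the least difference. Its brighter probe set, 174906_s_at, had 4941 and 5678 against 5038 and 5202, a log2 fold change of 0.05 (95% interval -0.31 to 0.41, adjusted p = 0.90 from limma). Its other, 191562_at, had 3565 and 3707 between 2850.4 and 4363, a log2 fold change of 0.04 (95% interval -0.40 to 0.48). The labels overlap in both, and differences beyond 1.5-fold lie outside both intervals.
*let-413* (F26D11.11) had 3007 and 3659 against 3522 and 2578 in 174030_at, a log2 fold change of 0.14 (95% interval -0.29 to 0.56). In 186878_at it had 1803 and 1350 against 1454 and 1686, a log2 fold change of -0.0049 (95% interval -0.45 to 0.44, adjusted p = 0.99 from limma). The replicates of *let-413* moved opposite ways in the pair of probe sets, and neither separated the labels.

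**Figure D2:**
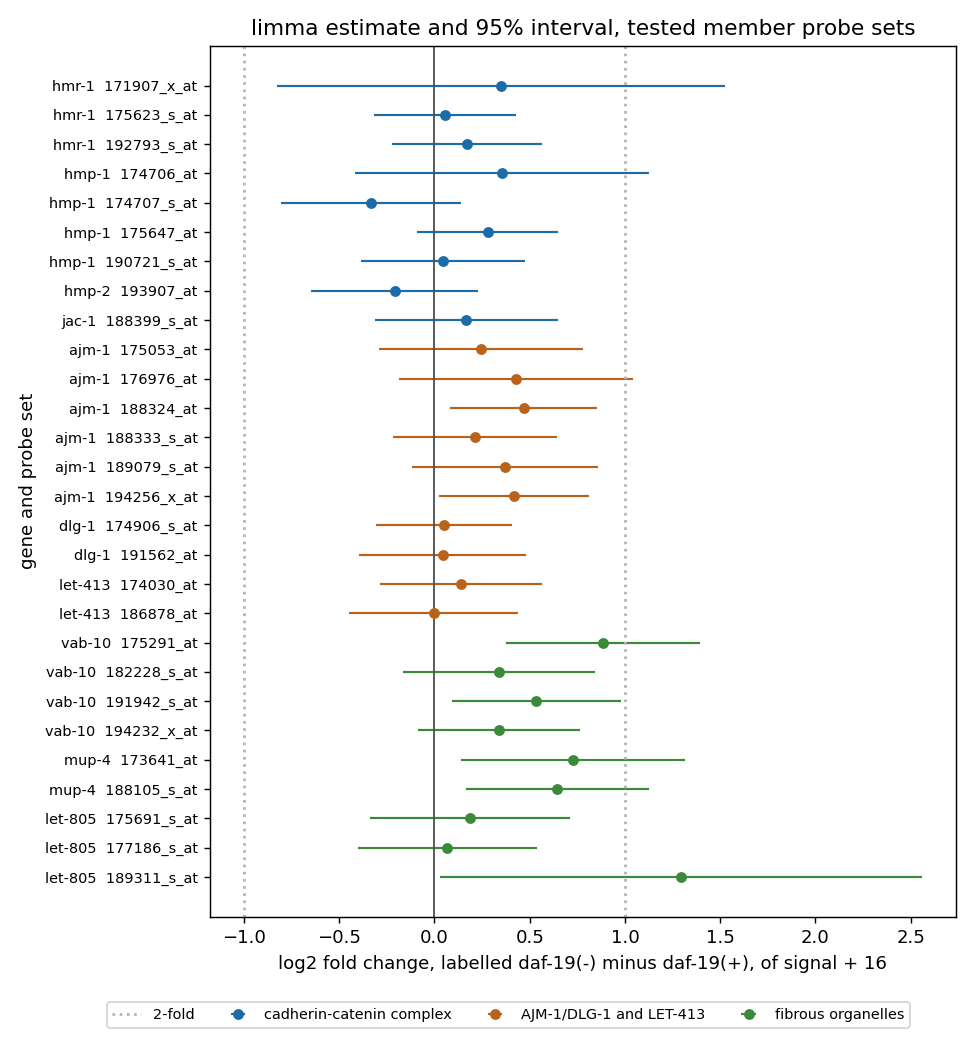
limma log2 fold change (points; labelled daf-19(-) minus daf-19(+), of signal + 16) and its 95% interval (bars) for the 28 tested probe sets, with dotted lines at a 2-fold change. The intervals of 7 probe sets, of ajm-1, vab-10, mup-4 and let-805, lie above 0. That of let-805 is 189311_s_at, which had to differ. Those of the other 21, all cadherin-catenin, dlg-1 and let-413 probe sets among them, include 0.

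The genes of the fibrous organelles had the highest median difference among these genes, and no probe set passed limma there either. VAB-10 is a spectraplakin that links intermediate filaments and the membrane, MUP-4 is a transmembrane protein on the side of the cuticle, and LET-805, or myotactin, is a transmembrane protein on the side of the muscle. Their 9 tested probe sets had a median log2 fold change of 0.54, against 0.17 for the cadherin-catenin complex and 0.23 for *ajm-1*, *dlg-1* and *let-413*. Without 189311_s_at of *let-805*, which had to differ, the median of the other 8, 4 of them of *vab-10*, was 0.44. All 8 were above 0, against 55.8% of all tested probe sets. In 5 both arrays labelled *daf-19(-)* lay above both others, against 29.7% of all. By gene the medians were 0.34, 0.11 and 0.14. That order depended on 1 array: without replicate 1 labelled *daf-19(+)* they were 0.17, 0.03 and 0.36. The difference between these groups of genes was not tested.

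*vab-10* (ZK1151.1) had the smallest p of these genes. In 175291_at the signals were 1481 and 1061 under the label *daf-19(-)* against 577 and 779 under *daf-19(+)*. Both of the former lay above both of the latter, with a ratio of 1.87 and a log2 fold change of 0.89 (standard error 0.24, 95% interval 0.38 to 1.40, adjusted p = 0.11 from limma). It passed when the replicate number was a block (adjusted p = 0.00406 from limma), a fit in which its own spread did not enter. The log2 difference between the labels was 1.34 in replicate 1 and 0.44 in replicate 2. Without any 1 array in turn the ratio stayed between 1.56 and 2.20, and without replicate 1 labelled *daf-19(+)* it was 1.63.
The other tested probe sets of *vab-10* differed less. 191942_s_at had 1195 and 1179 against 751 and 882, a log2 fold change of 0.54 (95% interval 0.09 to 0.98, adjusted p = 0.21 from limma), and 194232_x_at had 1817 and 1793 against 1270.2 and 1598, a log2 fold change of 0.34. In 182228_s_at, with 1281 and 1109 against 753 and 1172, replicate 2 labelled *daf-19(+)* reached the other label, and the log2 fold change of 0.34 was 0.02 without replicate 1 of that label. 177636_at and 194015_at stayed under 80 on every array, between 4.3 and 43.7. *vab-10* makes a plakin-like and a spectrin-like form, and the annotation does not say which form each probe set detects.

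*mup-4* (K07D8.1) gave alike values in both of its probe sets. 188105_s_at had 2211 and 2109 against 1090.0 and 1732, a ratio of 1.53 and a log2 fold change of 0.65 (standard error 0.22, 95% interval 0.16 to 1.13, adjusted p = 0.18 from limma), which passed with the block (adjusted p = 0.0297 from limma). 173641_at had 476 and 657 against 270.0 and 407, a ratio of 1.67 and a log2 fold change of 0.73 (95% interval 0.14 to 1.32, adjusted p = 0.20 from limma), which did not pass with it (adjusted p = 0.0573 from limma). The labels were apart in both, and in both the lowest signal was that of replicate 1 labelled *daf-19(+)*, without which the log2 fold changes were 0.32 and 0.44.

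*let-805* (H19M22.2) did not share this pattern in its bright probe sets. 175691_s_at had 3225 and 4147 against 2385 and 4330.0, and 177186_s_at had 1159 and 952 against 882 and 1139. The labels overlapped, with log2 fold changes of 0.19 (95% interval -0.34 to 0.71) and 0.07 (95% interval -0.40 to 0.54). Without replicate 1 labelled *daf-19(+)* both turned below 0, to -0.24 and -0.11. The dim 189311_s_at had 96.9 and 87.4 against 62.3 and 8.8, a ratio of 2.59 that went from 1.48 to 10.5 when 1 array was left out. Its log2 fold change of 1.29 had an interval of 0.03 to 2.56 (adjusted p = 0.27 from limma). Since it was tested only through the label where it is high, nothing is read from these values. No other tested member reached a 2-fold ratio in either direction, and 3.13% of all tested probe sets reached 2-fold higher.

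Set within each replicate number, the labels differed more between the replicate 1 arrays than between the replicate 2 arrays for 19 of the 28 probe sets, against 55.3% of all. The median difference on the log2 scale was 0.38 between the replicate 1 arrays and 0.16 between the replicate 2 arrays, against 0.09 and 0.03 over all tested probe sets. For the fibrous organelle genes the medians were 0.66 and 0.28, with *let-805* 189311_s_at, which had to differ, included. The differences were above 0 in both replicate numbers for 16 of the 28, *let-805* 189311_s_at among them, against 37.9% of all. They were below 0 in both for 2, against 28.6%. Those 2 are the probe set of *hmp-2* and 174707_s_at of *hmp-1*.

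**Figure D3:**
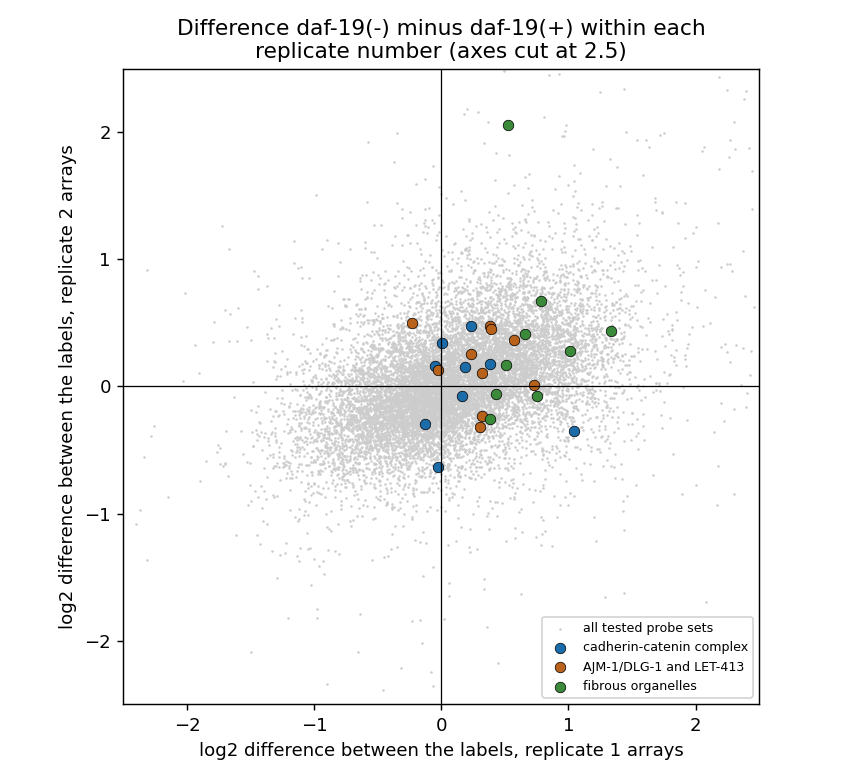
Log2 difference between the labels for the replicate 1 arrays (horizontal) and the replicate 2 arrays (vertical), with all 13096 tested probe sets in grey and the 28 member probe sets coloured by gene group; axes are cut at 2.5. Of the coloured points 16 lie above 0 on both axes and 2 below 0 on both. The fibrous organelle points, let-805 189311_s_at included, have medians of 0.66 on the horizontal and 0.28 on the vertical axis.

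Other genes of the same structures were taken by gene, each at its brightest tested probe set, and the median over all 9725 tested genes was 0.06. Of 6 other fibrous organelle genes 5 were tested, 0 passed limma, and all 5 were above 0 with a median log2 fold change of 0.35, beside 0.34 for the 3 fibrous organelle members. *pat-12*, which encodes a fibrous organelle protein, had 1293 and 1438 against 691 and 888, a log2 fold change of 0.79 (limma, adjusted p = 0.11, and 0.0112 with the block). *mua-6*, an intermediate filament gene, had 468 and 297 against 195 and 220 (219.5 as deposited), a log2 fold change of 0.80 (limma, adjusted p = 0.19). *vab-19* stayed under the floor on every array. Without replicate 1 labelled *daf-19(+)* the median of the list was 0.03.
Of 15 other apical junction genes, which include the claudin-like *vab-9*, the spectrins *sma-1*, *spc-1* and *unc-70* and the PAR complex genes, 0 passed limma, 13 were above 0 and the median was 0.23, beside 0.11 and 0.14 for the junction members above. The largest were *tes-1*, a LIM domain gene, at 0.57 (adjusted p = 0.25 from limma) and *vab-9* at 0.41 (adjusted p = 0.32 from limma).
The genes that act in contraction were divided in direction. Of 15 genes that include the myosin phosphatase subunit *mel-11* and the non-muscle myosins *nmy-1* and *nmy-2*, 14 were tested and 0 passed, 1 was higher at an unadjusted p under 0.05, 6 were above 0 and 8 below, and the median was -0.02, or 0.02 after quantile normalization.

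Markers of the tissues show that epidermal RNA was well detected. All 7 epidermal fate regulators were tested, among them *lin-26* with 2949 and 2777 against 2479 and 2547, and 0 passed limma, 6 being above 0 with a median of 0.24. The GATA factor *elt-1*, which starts epidermal fate, was the 1 below 0, with 1257 and 1291 against 1559 and 1663 (log2 fold change -0.33, adjusted p = 0.36 from limma). *egl-18* had 0.66 (adjusted p = 0.27 from limma, and 0.0319 with the block), carried by 1 array at 2767, and *nhr-23* had 0.40. Genes of the embryonic sheath and apical matrix (8 tested) had a median of 0.18, with *lpr-1* at 0.82 (adjusted p = 0.14 from limma, and 0.0166 with the block) and *che-14* at 0.39. Cuticle collagens (7 tested of 10, *sqt-1* and *bli-1* being under the floor on every array) had 0.21, and -0.06 without replicate 1 labelled *daf-19(+)*, with *dpy-13* at 0.51 and *dpy-2* at 0.35. In these lists 0 genes passed limma.

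Markers of muscle, neuron, intestine and pharynx were lowest on replicate 1 labelled *daf-19(+)*. Summed signals did not overlap between the labels for muscle, neuron, intestine and early zygotic genes, and overlapped for pharynx and germline genes. In body wall muscle, to which the fibrous organelles attach, 15 of 16 markers were above 0 with a median of 0.35, and 0 passed limma. Their signals summed to 43566 and 38485 under the label *daf-19(-)* against 28892 and 36861 under *daf-19(+)*. The largest were *unc-22*, at 0.74, and *deb-1*, a vinculin gene, at 0.64 (adjusted p = 0.16 from limma, and 0.0270 with the block).
Pan-neuronal markers (11 of 13 tested) had a median of 0.51, with *unc-10* at 0.86 and *unc-13* at 0.76, and summed signals from 12511 to 13071 against 9172 and 11695. Intestine markers (10 tested) had 0.52, with *cpr-1* at 1.09 and *vha-6* at 0.79, and summed signals from 15023 to 18077 against 10013 and 13423. *cpr-1* reached the floor only under the label *daf-19(-)*, so it had to be above 0. Pharynx markers (7 tested) had 0.35, with *myo-1* at 0.58 and *peb-1* at 0.49, and summed signals from 6585 to 6925 against 4514 and 6666. Each list was thus lowest on replicate 1 labelled *daf-19(+)*. Without that array the medians were 0.18 for muscle, 0.15 for neuron, 0.28 for intestine and -0.05 for pharynx markers.
Genes of younger embryos ran the other way, with 7 of 8 early zygotic and 15 of 18 germline and maternal genes below 0. Without replicate 1 labelled *daf-19(+)* the medians of these lists were -0.59 and -0.13. Early zygotic genes (8 of 9 tested) had a median of -0.75, and summed signals of 4564 and 4744 against 7991 and 6783. Among them *ceh-51* had -1.10 (adjusted p = 0.18 from limma) and *lsy-27* -0.93 (adjusted p = 0.10 from limma, and 0.00180 with the block). *ceh-51* reached the floor only under the label *daf-19(+)*, so it had to be below 0. Germline and maternal genes (18 tested) had a median of -0.21, with *pgl-1* at -0.71 and *nos-2* at -0.59, and summed signals of 30301 and 26731 against 36178 and 29915. None of the markers in these 6 lists passed limma. With the block 2 muscle, 2 neuron and 2 intestine markers were called higher and 3 early zygotic and 1 germline marker lower, *unc-10*, *unc-13*, *vha-6* and *pgl-1* among them (adjusted p = 0.0248, 0.0259, 0.0129 and 0.0402 from limma). Of all these markers only *rgef-1* was under the floor on every array. The junction genes among the members are also used in gut and pharynx epithelia. In whole embryos, fewer cells of a type and less RNA per cell cannot be told apart. What part the mix of tissues and ages has in the values of the junction and attachment genes was not tested.

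**Figure D4:**
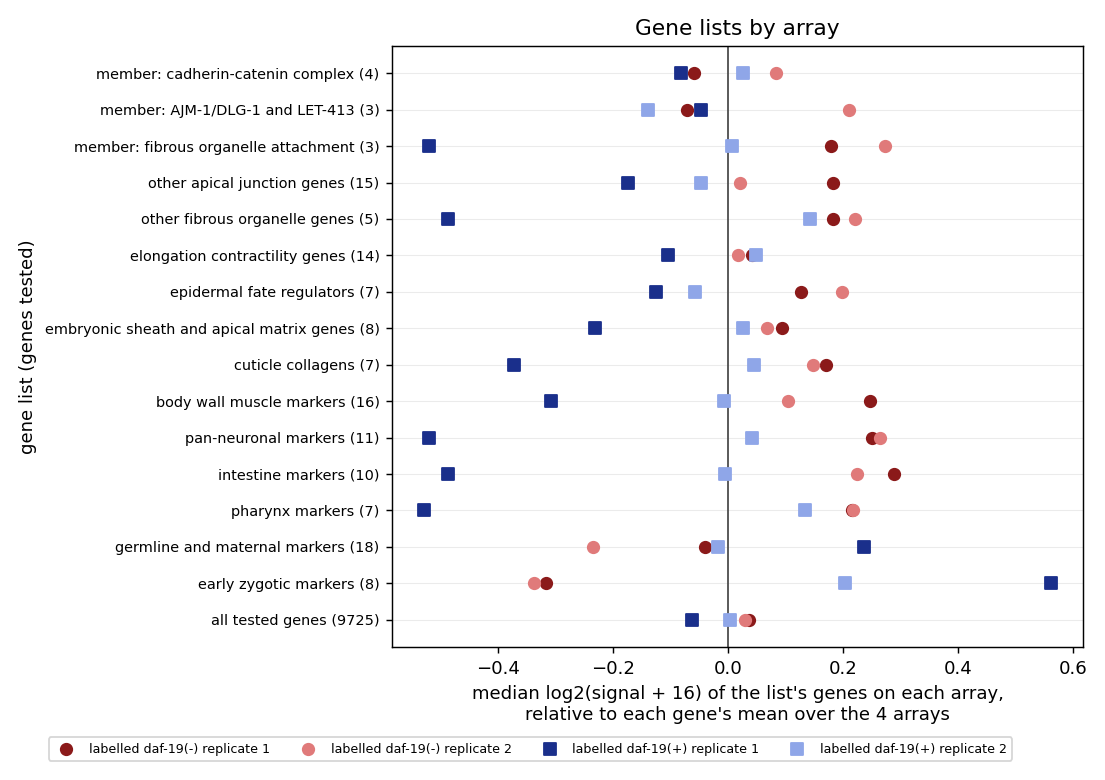
Median over each list's tested genes of log2(signal + 16) on each array, relative to each gene's own mean over the 4 arrays; circles are arrays labelled daf-19(-), squares arrays labelled daf-19(+), and the number of genes stands in brackets. Replicate 1 labelled daf-19(+) is low for fibrous organelle, sheath and apical matrix, cuticle collagen, muscle, neuron, intestine and pharynx genes. It is high for germline and early zygotic genes, and the points of the contraction genes lie close together.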

How the data were processed

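The deposited values are GCOS signals, linear intensities of every probe set on each array, whose software version no source here states. The authors set the overall signal of every chip to 500, with nothing done between chips, and 5 micrograms of total RNA were labelled for each. Of 22548 probe sets besides 77 controls, 20766 name 1 gene, 887 several, and 895 are unnamed here; 20701 were matched to RefSeq genes. Groups follow the deposited labels. The fit was limma 3.58.1 in R 4.3.3 (lmFit, eBayes with a variance trend, two-sided, Benjamini-Hochberg over all 13096 tested probe sets) on log2(signal + 16), and was tested on simulated data. Ratios use signals without the offset. Probe sets ending in _s_at or _x_at can share probes with other transcripts. The members and lists were chosen with earlier results of these data known. The 16 lists are 3 groups of members, other apical junction, other fibrous organelle, contraction, epidermal fate, sheath and apical matrix, cuticle collagen, muscle, neuron, intestine, pharynx, germline, early zygotic and ciliated neuron genes. Named genes are the members, *daf-19*, and of each other list the 2 with the largest change and those called; others illustrate a list and were chosen after their values were seen, and called ciliated neuron genes are given as a count. The 2 of the contraction list are not reported here. The replicate numbers pair the samples, as the study describes separate experiments and sets a fold within each; replicate differences correlated at 0.12 across probe sets between the labels. With that block limma took variances from their trend alone. Other filters, offsets, quantile normalization, no trend, the block and each array left out were tried. Planned promoter motifs were not analysed here. 0 columns of values were left unused. Precision is limited by there being 2 arrays per label.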

Additional observations from a re-analysis of the deposited data

How the results depend on the processing

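The alternatives were no filter, a floor of 200, quantile normalization, offsets of 1 and 64, no variance trend, the replicate block, and each array left out. Probe sets of the members called higher numbered 0 in every one of these except 2 with the replicate block and 5 without replicate 2 labelled *daf-19(+)*, so leaving out 1 array gave from 0 to 5, and 0 were called lower in any. The 5 are both of *mup-4*, 175291_at of *vab-10*, 189079_s_at of *ajm-1* and 171907_x_at of *hmr-1*, and that fit assumes the lone array varies like the other label. Over all probe sets 47 were higher and 11 lower. These counts were 11 and 2 with no filter, 31 higher after quantile normalization, 20 lower with an offset of 64, 26 and 2 with no variance trend, and 572 and 394 with the replicate block. With 1 array left out they ran from 14 to 971 and from 4 to 614, both highest without replicate 2 labelled *daf-19(+)*. Member probe sets, tested or not, at least 2-fold higher in mean signal numbered 2, 1 after quantile normalization and from 2 to 4 with 1 array left out; those 2-fold lower numbered 0, and from 0 to 2, the 2 being dim.

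Log2 fold changes that changed sign when 1 array was left out ran from -0.80 to 1.498 for *hmr-1* 171907_x_at, -0.034 to 0.15 for 175623_s_at, -0.032 to 0.74 for *hmp-1* 174706_at, -0.16 to 0.25 for 190721_s_at, -0.015 to 0.35 for *jac-1*, -0.058 to 0.54 for *ajm-1* 175053_at, -0.0084 to 0.43 for 188333_s_at, -0.051 to 0.15 for *dlg-1* 174906_s_at, -0.26 to 0.35 for 191562_at, -0.086 to 0.36 for *let-413* 174030_at, -0.21 to 0.20 for 186878_at, -0.24 to 0.61 for *let-805* 175691_s_at, -0.11 to 0.25 for 177186_s_at and -0.092 to 1.11 for *dpy-13*. 186878_at of *let-413* was also 0.0197 after quantile normalization. The causes were not tested. All 4 tested probe sets of *vab-10* and both of *mup-4* stayed above 0 in each alternative. The call of *daf-19* was lost with no variance trend, at an adjusted p of 0.0686 from limma. The block changed no call of the members besides those given.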
